A study of Mus musculus with 12 samples.

Results

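The genes described here are 10 members of the TNF superfamily, 6 receptors (Tnfrsf4, Tnfrsf9, Tnfrsf18, Tnfrsf1b, Tnfrsf25 and Cd27) and 4 ligands (Tnfsf8, Tnfsf11, Tnfsf14 and Tnf). They were chosen by name, and all 10 had a value in each of 12 RNA libraries of mouse CD4+ T cells, among 35492 gene symbols in all. All mice were C57BL/6J and 7 weeks old, and RNA was extracted from 300000 cells in every library. Tfh_TILS libraries came from CD4+ cells with CXCR5 and PD1 on the surface, which are marks of Tfh (follicular helper T) cells, isolated from tumours of MC38, a mouse colon carcinoma line. Tfh_OTII libraries came from naive T cells of OT-II mice, whose transgenic receptor recognises an ovalbumin peptide, cultured on coated CD3 and CD28 antibodies with IL-6 and IL-21 (50 ng/ml each) and antibodies against IL-4, IFNγ and TGFβ (10 µg/ml each). Tfh_Vitro libraries came from naive wild-type T cells under the same Tfh conditions. Th1_Vitro libraries came from naive wild-type T cells on the same coating with IL-12 (10 ng/ml) and an antibody against IL-4 (10 µg/ml). Each group had 3 libraries. The titles give 48 h for Tfh_OTII and 24 h for Tfh_Vitro and Th1_Vitro, while the treatment text has 48 h for Tfh and Th1 cultures alike, so genotype and time cannot be told apart between Tfh_OTII and Tfh_Vitro if the titles are right. The labels give no culture step for the sorted cells, and whether the replicates of a group are separate mice or cultures is not given in the sources used here. The p-values therefore reflect only how far these libraries differ among themselves, which may be technical.

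Ligands of this superfamily are mostly membrane proteins that act as trimers on receptors of neighbouring cells. Receptors such as OX40 (Tnfrsf4), 4-1BB (Tnfrsf9), GITR (Tnfrsf18) and TNFR2 (Tnfrsf1b) have no death domain and recruit TRAF adaptors, which lead to NF-kB activation and T cell survival. They are induced when T cells are activated, and in mice regulatory T cells carry high levels of several of them.

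Levels are TPM, a transcript abundance per length that is scaled to the same total in every library and carries no read count, so depth is unknown. In Th1_Vitro, 12 predicted gene models in 3 short stretches of the genome took 33.7 to 62.3% of all TPM, against 3.48 to 19.0% in Tfh_TILS, 0.0873 to 0.458% in Tfh_OTII and 2.75 to 13.3% in Tfh_Vitro. Since TPM add up to a fixed sum, the members' differences from Th1_Vitro are given as deposited and after median-of-ratios scaling, which lowered the median log2 difference of all genes by 0.641 (Tfh_Vitro), 0.717 (Tfh_TILS) and 0.664 (Tfh_OTII). A gene is said to have risen or fallen against Th1_Vitro only when it passed the test in 1 direction both ways. The summed TPM of 8 Tfh marker genes ran from 330.1 to 582 in Tfh_TILS, 151 to 169 in Tfh_OTII, 247 to 290.3 in Tfh_Vitro and 41.5 to 69.6 in Th1_Vitro, and after scaling it was 251.2 to 412, 115 to 145, 217 to 242 and 76.8 to 148 in the same order. Il21, 1 of the 8, was lower in Tfh_TILS than in both Tfh cultures. Its TPM were 5.28 to 9.25 in Tfh_TILS, 66.8 to 71.4 in Tfh_OTII, 75.1 to 97.8 in Tfh_Vitro and 1.49 to 7.69 in Th1_Vitro. Of the 7 tested, 5 were higher and 1 lower both ways in Tfh_TILS than in Tfh_OTII, where 6.76% and 6.84% of all genes were. Against Tfh_Vitro 2 were higher and 1 lower, where 0.965% and 0.849% of all genes were. The sum of 5 Th1 markers ran from 137 to 159.9 in Tfh_TILS, 157 to 179 in Tfh_OTII, 174 to 228 in Tfh_Vitro and 88.2 to 255 in Th1_Vitro. After scaling that sum was 104 to 129.6 in Tfh_TILS, 112 to 170.5 in Tfh_OTII, 153 to 176 in Tfh_Vitro and 163 to 544 in Th1_Vitro, so the Th1_Vitro libraries overlapped each Tfh group as deposited and Tfh_OTII and Tfh_Vitro after scaling. Of the 5 markers, Ifng fell both ways in Tfh_TILS and Tfh_OTII against Th1_Vitro, Tbx21 fell in Tfh_OTII, and Cxcr3 rose in Tfh_TILS; with a library left out the deposited Ifng calls were kept in 3 and 2 of 6 cases. One library stood apart from its group: Tfh_TILS replicate 2 had 1239 TPM summed over 14 macrophage and monocyte markers, against 119 and 324 in replicates 1 and 3, and no other group exceeded 70.0. Gzmb, a granule protease of cytotoxic cells, was at 1601 TPM in that library and at 99.2 and 332 in the other Tfh_TILS libraries. It was at 486 to 594 TPM in Tfh_OTII, 261 to 346 TPM in Tfh_Vitro and 14.9 to 67.0 TPM in Th1_Vitro. Gzmb was 1 of 10 NK and CD8 T cell markers, and Cd8a, Eomes and Klrb1c went the other way. They were at 0.816, 0.728 and 0.624 times the mean of replicates 1 and 3 in replicate 2. The summed TPM of 9 neutrophil and mast cell markers was 481 in that library, against 14.7 and 81.2 in replicates 1 and 3. In bulk RNA, fewer cells of a type and less RNA per cell cannot be told apart.

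Of the 10 genes, 6 lie on chromosome 4 (GRCm38, GENCODE M21): Tnfsf8 (63831308 to 63861347, minus strand), Tnfrsf1b (145213463 to 145246870, minus), Tnfrsf9 (150914562 to 150946102, plus), Tnfrsf25 (152115934 to 152120119, plus), Tnfrsf4 (156013843 to 156016612, plus) and Tnfrsf18 (156026164 to 156028895, plus). Cd27 lies on chromosome 6 (125232622 to 125237010, minus), Tnfsf11 on chromosome 14 (78277445 to 78308043, minus), and Tnf (35199381 to 35202007, minus) and Tnfsf14 (57189492 to 57194177, minus) on chromosome 17. All are protein-coding, and values are given per gene symbol, so exons or isoforms are not resolved.

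To show the regulatory DNA next to genes that moved together or apart, the 250 bases before the annotated start are given for 6 members (RefSeq, GRCm38.p6, 5′ to 3′ on the gene's strand), with matches to 3 motifs in capitals. The motifs, searched on both strands and chosen after the expression values were known, were GGG and CC with any 5 bases between them for NF-kB, TGANTCA for AP-1 and TTCNNNGAA for STAT proteins, and overlapping matches run together. Tnfrsf1b and Tnf are shown as the members that were higher in Tfh_TILS than in Tfh_OTII, Tnfrsf9 as the other receptor higher in Tfh_TILS than in Th1_Vitro, Tnfsf11 as a ligand lower in Tfh_OTII than in Th1_Vitro, and Tnfrsf4 and Tnfrsf18 as genes close together that differed in pattern.
Tnfrsf1b (chr4:145246871-145247120, minus strand): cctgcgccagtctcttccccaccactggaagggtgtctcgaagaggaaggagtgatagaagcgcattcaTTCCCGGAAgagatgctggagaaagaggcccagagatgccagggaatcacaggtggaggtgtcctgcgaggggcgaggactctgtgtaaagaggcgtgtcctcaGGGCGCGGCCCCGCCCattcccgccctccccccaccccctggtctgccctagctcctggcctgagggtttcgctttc
Tnf (chr17:35202008-35202257, minus strand): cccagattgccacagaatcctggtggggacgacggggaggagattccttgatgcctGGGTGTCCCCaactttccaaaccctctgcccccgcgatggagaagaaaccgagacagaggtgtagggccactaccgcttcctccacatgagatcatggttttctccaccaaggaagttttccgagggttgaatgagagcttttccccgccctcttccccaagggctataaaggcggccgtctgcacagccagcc
Tnfrsf9 (chr4:150927749-150927998, plus strand, the second of 2 annotated starts): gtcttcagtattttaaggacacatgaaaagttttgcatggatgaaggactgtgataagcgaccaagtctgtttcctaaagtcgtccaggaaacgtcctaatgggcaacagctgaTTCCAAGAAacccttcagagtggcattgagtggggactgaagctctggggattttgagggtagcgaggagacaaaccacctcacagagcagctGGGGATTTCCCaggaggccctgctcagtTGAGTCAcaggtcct
Tnfsf11 (chr14:78308044-78308293, minus strand): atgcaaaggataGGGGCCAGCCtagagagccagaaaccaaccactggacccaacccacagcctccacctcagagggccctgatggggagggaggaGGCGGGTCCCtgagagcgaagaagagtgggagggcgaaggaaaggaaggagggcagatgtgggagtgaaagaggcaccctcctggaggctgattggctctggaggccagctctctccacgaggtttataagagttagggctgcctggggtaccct
Tnfrsf4 (chr4:156013445-156013694, plus strand): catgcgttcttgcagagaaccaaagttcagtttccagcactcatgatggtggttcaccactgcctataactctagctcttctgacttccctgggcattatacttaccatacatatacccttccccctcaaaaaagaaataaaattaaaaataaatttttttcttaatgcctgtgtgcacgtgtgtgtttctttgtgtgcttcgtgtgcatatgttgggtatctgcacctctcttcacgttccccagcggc
Tnfrsf18 (chr4:156026072-156026321, plus strand): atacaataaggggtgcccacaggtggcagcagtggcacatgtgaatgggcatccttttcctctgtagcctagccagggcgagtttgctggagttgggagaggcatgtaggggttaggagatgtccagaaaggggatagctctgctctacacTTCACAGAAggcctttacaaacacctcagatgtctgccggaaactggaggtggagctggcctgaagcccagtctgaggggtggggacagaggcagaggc
The second Tnfrsf9 window held all 3 motifs, while the window of the first Tnfrsf9 start, not shown, held none. The Tnfrsf4 window held none either. Across the 12 windows of the 10 members the NF-kB letters occurred in 8, the AP-1 letters in 2 and the STAT letters in 4. The same letters occurred in 45.8%, 6.75% and 7.02% of 32851 mouse windows of this length, so the NF-kB pattern is a loose one. These are matches of letters and not measured binding. The RefSeq starts used for Tnfrsf9, Tnfrsf18 and Tnfrsf4 differ from the GENCODE positions given above. By those positions the Tnfrsf9 window shown lies inside the gene, as does the part of the Tnfrsf18 window with the STAT letters. The Tnfrsf4 window ends some way before the GENCODE start.

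The 10 genes spanned a wide range of levels. Tnfrsf4, Tnfrsf9 and Tnfrsf18 had the highest group means in each of the 4 groups, between 51.4 and 395 TPM, and Tnfrsf25 and Tnfsf14 had means of 4.96 to 13.2 TPM. The 6 receptors together reached 672, 1747 and 838 TPM in Tfh_TILS replicates 1, 2 and 3, 682 to 698 TPM in Tfh_OTII, 668 to 851 TPM in Tfh_Vitro and 209 to 416 TPM in Th1_Vitro. The 4 ligands together reached 202, 115 and 174 TPM in Tfh_TILS, 93.2 to 105 TPM in Tfh_OTII, 136 to 189.8 TPM in Tfh_Vitro and 89.9 to 118 TPM in Th1_Vitro.

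**Figure D1:**
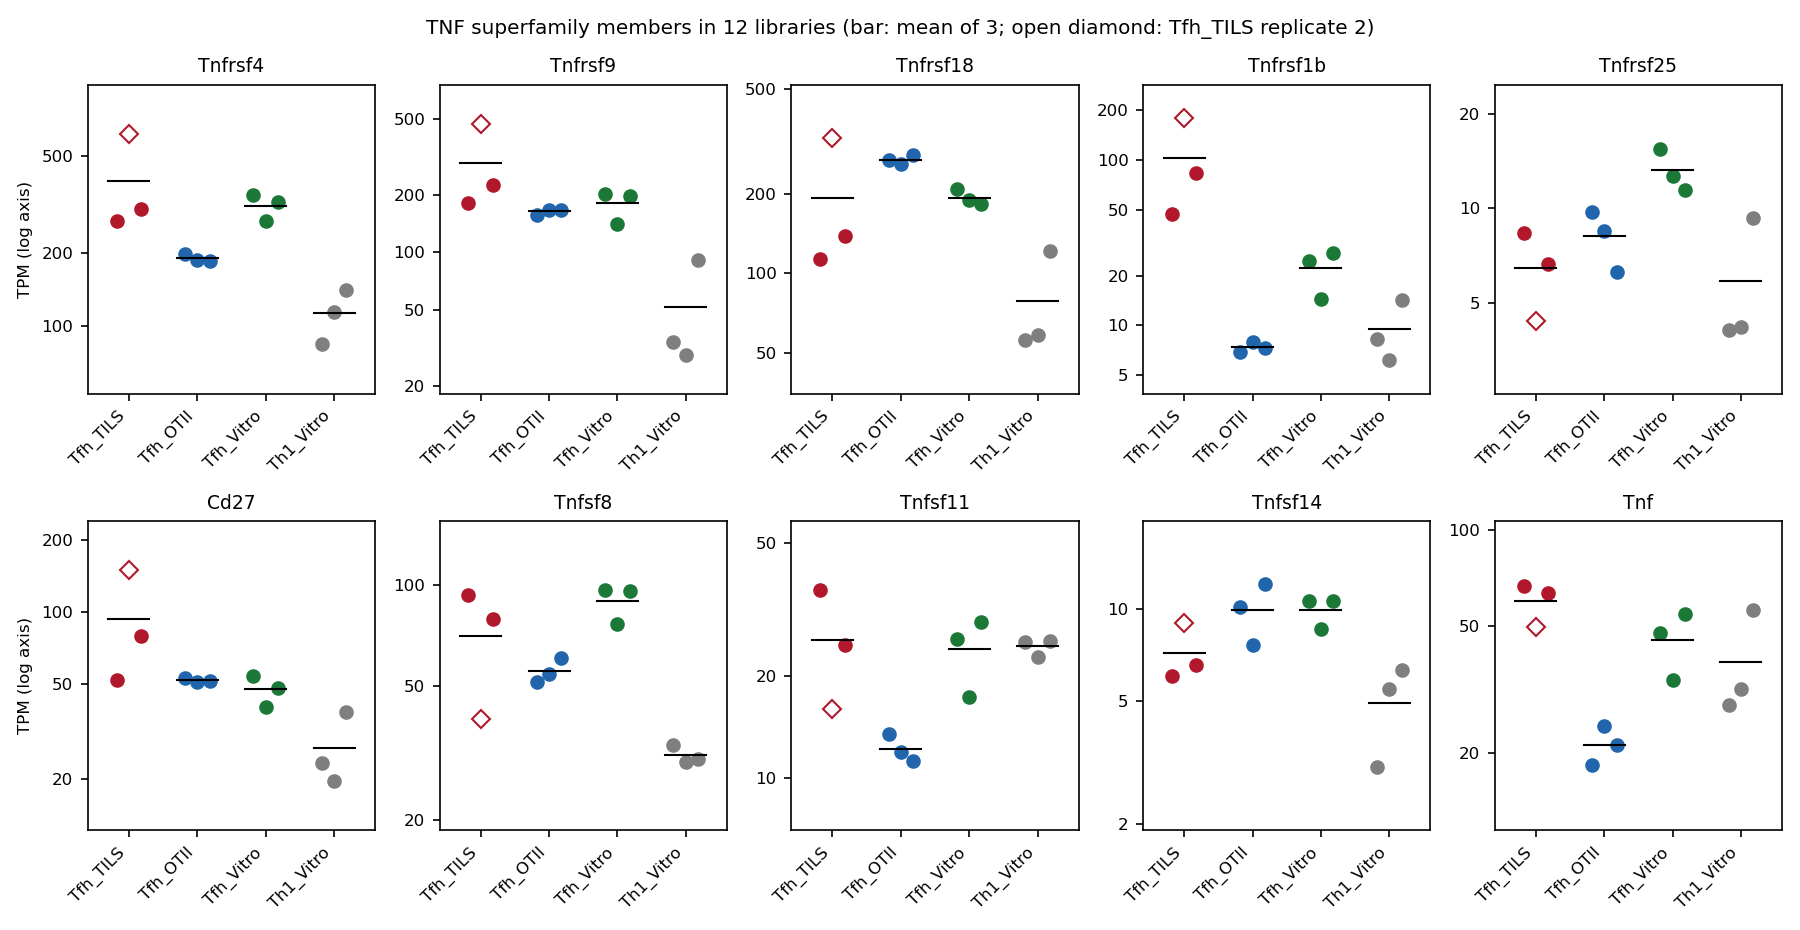
TPM of the 10 members (y axis, logarithmic) in the 4 groups (x axis), with 1 point per library and a bar at the mean of 3; the open diamond is Tfh_TILS replicate 2. Tnfrsf1b stands above the other groups in all 3 Tfh_TILS libraries (47.2 to 179 TPM), and Tnf and Tnfsf11 are lowest in Tfh_OTII.

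Tnfrsf1b encodes TNFR2, the TNF receptor without a death domain, which in mice is abundant on regulatory T cells. It was at 47.2, 179 and 83.3 TPM in Tfh_TILS, at 6.90, 7.96 and 7.25 TPM in Tfh_OTII, at 24.7, 14.4 and 27.5 TPM in Tfh_Vitro and at 8.24, 6.16 and 14.2 TPM in Th1_Vitro. Every Tfh_TILS library lay above every other library, Tfh_OTII lay below Tfh_Vitro, and Tfh_OTII and Th1_Vitro overlapped. The difference of mean log2(TPM + 1) was 3.43 ± 0.42 for Tfh_TILS against Tfh_OTII (SE; limma adjusted p = 0.000247), and without Tfh_TILS replicate 2 it was 2.93 (adjusted p = 0.00064). Against Th1_Vitro it was 3.17 ± 0.42 (adjusted p = 0.000121), and scaling left 2.03 ± 0.36 (adjusted p = 0.00331), and Tnfrsf1b passed the test both ways with each library left out in turn. Against Tfh_Vitro it was 2.01 ± 0.42 (adjusted p = 0.0291; after scaling 1.87 ± 0.36, adjusted p = 0.0195). That last call was lost, with adjusted p from 0.0684 to 0.171, when any 1 library other than Tfh_TILS replicate 1 was left out, and without Tfh_TILS replicate 2 the difference was 1.51 (adjusted p = 0.0825). For Tfh_OTII against Tfh_Vitro the difference was -1.42 ± 0.42 (adjusted p = 0.115), which did not pass. In Tfh_OTII against Th1_Vitro the deposited difference was -0.26 (adjusted p = 0.625) and the scaled one -1.28 (adjusted p = 0.026), a scaled call kept only without Th1_Vitro replicate 2 when 1 library was left out (the other 5 had adjusted p from 0.0505 to 0.0936). In Tfh_Vitro against Th1_Vitro the deposited difference was 1.16 (adjusted p = 0.0432) and the scaled one 0.16 (adjusted p = 0.814), and the deposited call was kept only without Tfh_Vitro replicate 2 or Th1_Vitro replicate 3. The summed TPM of 8 regulatory T cell markers was also highest in Tfh_TILS, at 909, 1768 and 1063 in Tfh_TILS, 549 to 594 in Tfh_OTII, 600.4 to 838 in Tfh_Vitro and 122 to 182 in Th1_Vitro, with no marker at 0 in any group. After scaling it was 797 to 1253 in Tfh_TILS, 383 to 544 in Tfh_OTII, 527 to 769 in Tfh_Vitro and 226 to 295 in Th1_Vitro. Both ways, 6 of the 8 markers were higher in Tfh_TILS than in Tfh_OTII, where 6.76% of all genes were. Against Tfh_Vitro 3 were higher, where 0.965% of all genes were, and against Th1_Vitro 8, where 10.2% were. The cultures also stood above Th1_Vitro, with 7 markers higher in Tfh_Vitro and 3 in Tfh_OTII. Of all genes, 8.65% and 12.3% were higher in those comparisons. In Tfh_OTII 4 markers were lower than in Tfh_Vitro, where 1.16% of all genes were. Il2ra, the IL-2 receptor alpha chain that activated T cells also carry, made up 523, 534 and 541 TPM of the sum in Tfh_TILS and 379 to 425 TPM in Tfh_OTII, 387 to 523 TPM in Tfh_Vitro and 105 to 149 TPM in Th1_Vitro. Foxp3, their defining transcription factor, was at 54.1 to 147 TPM in Tfh_TILS, 1.66 to 2.19 TPM in Tfh_OTII, 12.9 to 31.7 TPM in Tfh_Vitro and 0.547 to 1.53 TPM in Th1_Vitro. The part of regulatory or macrophage RNA in the Tnfrsf1b difference was not tested.

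Tnfrsf9 encodes 4-1BB, a costimulatory receptor of recently activated T cells. It was at 182, 475 and 227 TPM in Tfh_TILS, 158, 168 and 167 TPM in Tfh_OTII, 204, 142 and 197 TPM in Tfh_Vitro and 33.7, 29.0 and 91.6 TPM in Th1_Vitro. The 3 Tfh groups lay above all Th1_Vitro libraries, and Tfh_TILS overlapped Tfh_Vitro. Tfh_TILS was higher than Th1_Vitro by 2.56 ± 0.42 log2 as deposited (limma adjusted p = 0.000406) and by 1.36 ± 0.36 after scaling (adjusted p = 0.0207). After scaling the call was lost without Tfh_TILS replicate 2 (1.02, adjusted p = 0.0843), without Th1_Vitro replicate 1 (1.18, adjusted p = 0.0609) and without Th1_Vitro replicate 2 (1.17, adjusted p = 0.0618). For Tfh_OTII and Tfh_Vitro against Th1_Vitro the differences were 1.85 and 1.97 as deposited and 0.74 and 0.90 after scaling, and the scaled values did not pass (adjusted p = 0.166 and 0.111).

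Tnfrsf4 and Tnfrsf18 encode OX40 and GITR, costimulatory receptors whose genes lie on chromosome 4 in the same orientation, 9551 bases apart. Tnfrsf4 was at 269.8, 613 and 303 TPM in Tfh_TILS, 198, 187 and 186 TPM in Tfh_OTII, 344, 269 and 324 TPM in Tfh_Vitro and 84.2, 114 and 141 TPM in Th1_Vitro. Tnfrsf18 was at 114, 325 and 139 TPM in Tfh_TILS, 269, 260.1 and 280.1 TPM in Tfh_OTII, 208, 189.6 and 184 TPM in Tfh_Vitro and 55.8, 58.0 and 122 TPM in Th1_Vitro. Tfh_OTII thus lay below Tfh_Vitro for Tnfrsf4 and above it for Tnfrsf18, without overlap in either gene. Neither difference passed over all genes, at -0.71 ± 0.30 for Tnfrsf4 (limma adjusted p = 0.327) and 0.48 ± 0.37 for Tnfrsf18 (adjusted p = 0.693). In a fit of these 2 groups alone both passed, at adjusted p = 0.0114 and 0.0148. Against Th1_Vitro, Tnfrsf4 differed by 1.73 in Tfh_TILS, 0.77 in Tfh_OTII and 1.48 in Tfh_Vitro as deposited, of which Tfh_OTII did not pass (adjusted p = 0.0547; 1 library left out, it passed without Th1_Vitro replicate 3), and by 0.52, -0.35 and 0.40 after scaling. Tnfrsf18 differed from Th1_Vitro by 1.22 in Tfh_TILS, 1.86 in Tfh_OTII (adjusted p = 0.00144) and 1.39 in Tfh_Vitro as deposited, all of which passed, and by 0.02, 0.75 and 0.31 after scaling. No scaled difference of either gene from Th1_Vitro passed (adjusted p from 0.13 to 0.989). The Tnfrsf18 call in Tfh_TILS as deposited was lost without Tfh_TILS replicate 2 (0.77, adjusted p = 0.0665), Th1_Vitro replicate 1 (1.03, adjusted p = 0.0633) or Th1_Vitro replicate 2 (1.05, adjusted p = 0.0637). Exons of Tnfrsf18 overlap those of Gm16008, an antisense gene; the library kit marks strand, but the strand setting of the quantification is not given in the sources used here, so the Tnfrsf18 values may hold antisense reads.

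Cd27, a receptor kept on naive and memory T cells, was at 51.9, 150.4 and 79.7 TPM in Tfh_TILS, 53.0, 51.1 and 51.5 TPM in Tfh_OTII, 54.2, 40.3 and 48.0 TPM in Tfh_Vitro and 23.4, 19.6 and 38.4 TPM in Th1_Vitro. The Tfh groups overlapped one another and lay above Th1_Vitro in deposited TPM, by 1.68 ± 0.34 log2 in Tfh_TILS (limma adjusted p = 0.00173), 0.97 ± 0.34 in Tfh_OTII (adjusted p = 0.0359) and 0.83 ± 0.34 in Tfh_Vitro (adjusted p = 0.0661, not passed). After scaling the differences were 0.49 in Tfh_TILS, -0.13 in Tfh_OTII and -0.22 in Tfh_Vitro, so the direction turned in both cultures, and none passed (adjusted p from 0.264 to 0.798). The deposited call in Tfh_OTII was kept only without Th1_Vitro replicate 3 when 1 library was left out (1.24, adjusted p = 0.0114; the other 5 ran from adjusted p = 0.067 to 0.129), and without that library Tfh_Vitro passed too. Tnfrsf25 encodes DR3, a receptor that has a death domain and costimulates T cells. It was at 8.32, 4.37 and 6.66 TPM in Tfh_TILS, 9.71, 8.48 and 6.30 TPM in Tfh_OTII, 15.5, 12.7 and 11.4 TPM in Tfh_Vitro and 4.11, 4.19 and 9.33 TPM in Th1_Vitro. It was the 1 receptor of the 6 for which Tfh_Vitro lay above Tfh_TILS and Tfh_OTII without overlap, but the differences of -0.96 ± 0.32 for Tfh_TILS (adjusted p = 0.159) and -0.64 ± 0.32 for Tfh_OTII (adjusted p = 0.424) did not pass. Against Th1_Vitro, Tnfrsf25 differed by 0.16, 0.48 and 1.12 in Tfh_TILS, Tfh_OTII and Tfh_Vitro as deposited, of which Tfh_Vitro passed (adjusted p = 0.0136), and by -0.88, -0.50 and 0.17 after scaling, none of which passed (adjusted p from 0.0597 to 0.756). The deposited call in Tfh_Vitro was lost without Th1_Vitro replicate 1 (adjusted p = 0.0552) or replicate 2 (adjusted p = 0.0546). One library decided other values: Tfh_OTII passed as deposited without Th1_Vitro replicate 3, and Tfh_TILS passed as lower after scaling without Tfh_TILS replicate 1 or Th1_Vitro replicate 1.

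Among the ligands, Tnf, the founding cytokine of the family, was at 66.8, 49.8 and 63.4 TPM in Tfh_TILS, 18.3, 24.2 and 21.1 TPM in Tfh_OTII, 47.4, 33.9 and 54.5 TPM in Tfh_Vitro and 28.2, 31.8 and 56.0 TPM in Th1_Vitro. All 3 Tfh_OTII libraries lay below every other library, and Tfh_TILS overlapped Tfh_Vitro and Th1_Vitro. Tnf was higher in Tfh_TILS than in Tfh_OTII by 1.46 ± 0.28 log2 (limma adjusted p = 0.00395; after scaling 1.36, adjusted p = 0.00592), and passed both ways with each library left out in turn, at 1.58 without Tfh_TILS replicate 2. It fell in Tfh_OTII against Th1_Vitro, with a difference of -0.78 ± 0.28 in the TPM as they stand (adjusted p = 0.0364) and of -1.87 ± 0.28 in scaled TPM (adjusted p = 0.000516). The call as deposited was lost without Tfh_OTII replicate 1, 2 or 3 (adjusted p = 0.126, 0.0514 and 0.0686) or Th1_Vitro replicate 3 (-0.49, adjusted p = 0.0986), and the scaled call was kept in all 6 cases. For Tfh_OTII against Tfh_Vitro the difference was -1.04 ± 0.28 (adjusted p = 0.0765), which did not pass. Against Th1_Vitro, Tnf differed by 0.68 in Tfh_TILS and 0.26 in Tfh_Vitro as deposited and by -0.52 and -0.80 after scaling, and none of these passed (adjusted p from 0.058 to 0.445). With 1 library left out, Tfh_TILS passed as deposited without Th1_Vitro replicate 3, and Tfh_Vitro passed after scaling without Th1_Vitro replicate 1.

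Tnfsf11 encodes RANKL, the osteoclast differentiation factor, which activated T cells also make. It was at 36.2, 16.0 and 24.8 TPM in Tfh_TILS, 13.5, 11.9 and 11.2 TPM in Tfh_OTII, 25.9, 17.3 and 29.0 TPM in Tfh_Vitro and 25.3, 22.9 and 25.6 TPM in Th1_Vitro. As with Tnf, the Tfh_OTII libraries were the lowest of all and did not overlap any other group. Tnfsf11 fell in Tfh_OTII against Th1_Vitro, with a log2 difference of -0.96 ± 0.28 as deposited (limma adjusted p = 0.0151) and of -2.04 ± 0.31 after scaling (adjusted p = 0.000611), and passed both ways with each library left out. Tfh_TILS was higher than Tfh_OTII by 0.95 ± 0.28 as deposited (adjusted p = 0.0385), but not after scaling (0.85, adjusted p = 0.0817), and as deposited it passed only without Tfh_TILS replicate 2 when 1 library was left out (1.24, adjusted p = 0.0109; the other 5 ran from 0.67 to 1.02, adjusted p from 0.0611 to 0.138). Against Th1_Vitro, Tfh_TILS and Tfh_Vitro differed by -0.01 and -0.06 as deposited and by -1.18 (adjusted p = 0.0195) and -1.11 (adjusted p = 0.031) after scaling. The scaled call in Tfh_TILS was lost without Tfh_TILS replicate 2 (-0.83, adjusted p = 0.0712) or replicate 3 (-1.18, adjusted p = 0.055), and the one in Tfh_Vitro was lost with each library left out in turn (-0.92 to -1.22, adjusted p from 0.05 to 0.142) except Th1_Vitro replicate 3 (-1.21, adjusted p = 0.0396).

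Tnfsf8, the CD30 ligand, was at 92.8, 40.0 and 78.9 TPM in Tfh_TILS, 51.4, 54.1 and 60.6 TPM in Tfh_OTII, 96.6, 76.4 and 95.7 TPM in Tfh_Vitro and 33.4, 29.8 and 30.2 TPM in Th1_Vitro. All Th1_Vitro libraries were below all others. As deposited the differences from Th1_Vitro were 1.07 in Tfh_TILS, 0.81 in Tfh_OTII and 1.49 in Tfh_Vitro, all of which passed, and after scaling they were -0.12, -0.29 and 0.43, none of which passed (limma adjusted p from 0.424 to 0.844). The deposited call in Tfh_OTII (adjusted p = 0.03) was lost without any 1 Tfh_OTII library or Th1_Vitro replicate 2 (adjusted p from 0.0615 to 0.0776). Tnfsf14 encodes LIGHT, a ligand of HVEM and the lymphotoxin beta receptor. Its levels were low, at 6.04, 8.99 and 6.55 TPM in Tfh_TILS, 10.1, 7.64 and 12.0 TPM in Tfh_OTII, 10.6, 8.59 and 10.6 TPM in Tfh_Vitro and 3.06, 5.50 and 6.31 TPM in Th1_Vitro. As deposited, Tnfsf14 differed from Th1_Vitro by 0.49 in Tfh_TILS (adjusted p = 0.149), 0.90 in Tfh_OTII (adjusted p = 0.0186) and 0.91 in Tfh_Vitro (adjusted p = 0.0187), the last 2 of which passed. After scaling the differences were -0.56, -0.08 and -0.03 in the same order, and none passed (adjusted p from 0.186 to 0.965). Both deposited calls were lost without replicate 1 or 3 of their own group or Th1_Vitro replicate 1 (adjusted p from 0.0528 to 0.0765). Its Tfh groups overlapped one another.

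The comparison of Tfh_TILS with Tfh_Vitro asks how the sorted tumour cells differ from the culture named for the same cell type. Of the 10 members, 1 rose (Tnfrsf1b) and none fell, where 2.1% of the 23308 genes tested passed in either direction and 1.15% were higher. That count was 0 without any 1 library other than Tfh_TILS replicate 1. The median difference of the members was 0.15 log2, against 0.10 for all genes. In Tfh_OTII against Tfh_Vitro none of the members passed in limma, where 2.38% of all genes did as deposited and 1.92% after scaling. At an unadjusted p under 0.05 there were 5 members, all lower in Tfh_OTII (Tnf, Tnfrsf1b, Tnfsf11, Tnfsf8 and Tnfrsf4), where 13.2% of all genes passed that threshold in either direction and 6.08% were lower. A fit of these 2 groups alone called 6 members, those 5 lower and Tnfrsf18 higher, where it called 2.41% of all genes lower and 9.06% higher. The median member differed by -0.66 log2, against 0.05 for all genes. In Tfh_TILS against Tfh_OTII, 3 members were higher as deposited and 2 of them both ways (Tnfrsf1b and Tnf), where 7.97% of all genes were higher as deposited and 6.76% both ways. The count in either direction as deposited was 2 without Tfh_TILS replicate 3 and without any Tfh_OTII library, while after scaling it was 4 without Tfh_TILS replicate 2. Those 4 included Tnfrsf18, which was lower in Tfh_TILS there (limma adjusted p = 0.0287; as deposited -1.10, adjusted p = 0.0415). With all libraries Tnfrsf18 did not pass (-0.64, adjusted p = 0.283; after scaling -0.73, adjusted p = 0.162). The median member differed by 0.71, against 0.06 for all genes.

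Against Th1_Vitro the calls turned on the scaling. In Tfh_TILS, 6 members were higher as deposited, where 49.3% of all genes were higher, and 2 of them both ways (Tnfrsf1b and Tnfrsf9), where 10.2% of all genes were. The members' median difference was 1.15 as deposited and -0.05 after scaling, against 0.87 and 0.16 for all genes. In Tfh_OTII, 5 members were higher and 2 lower as deposited, where 42.7% of all genes were higher and 1.16% lower, and both ways 2 were lower (Tnfsf11 and Tnf), where 1.15% of all genes were. The 7 calls as deposited became 3 without Tfh_OTII replicate 1, 4 without replicate 2 and 3 without replicate 3. The members' median difference was 0.79 as deposited and -0.32 after scaling, against 0.79 and 0.12 for all genes. In Tfh_Vitro, 7 members were higher as deposited, where 41.1% of all genes were higher, and after scaling 1 was lower (Tnfsf11), where 5.07% of all genes were. The 7 calls became 4 without Th1_Vitro replicate 1. No member passed limma both ways in that comparison, where 8.65% of all genes were higher both ways and 0.506% lower. At an unadjusted p under 0.05 there were 8 members as deposited and 3 after scaling, where 52% and 29.4% of all genes were under it. The median difference was 1.14 as deposited and 0.16 after scaling, against 0.78 and 0.14 for all genes. The 6 comparisons share groups, so their values are not independent of one another.

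**Figure D2:**
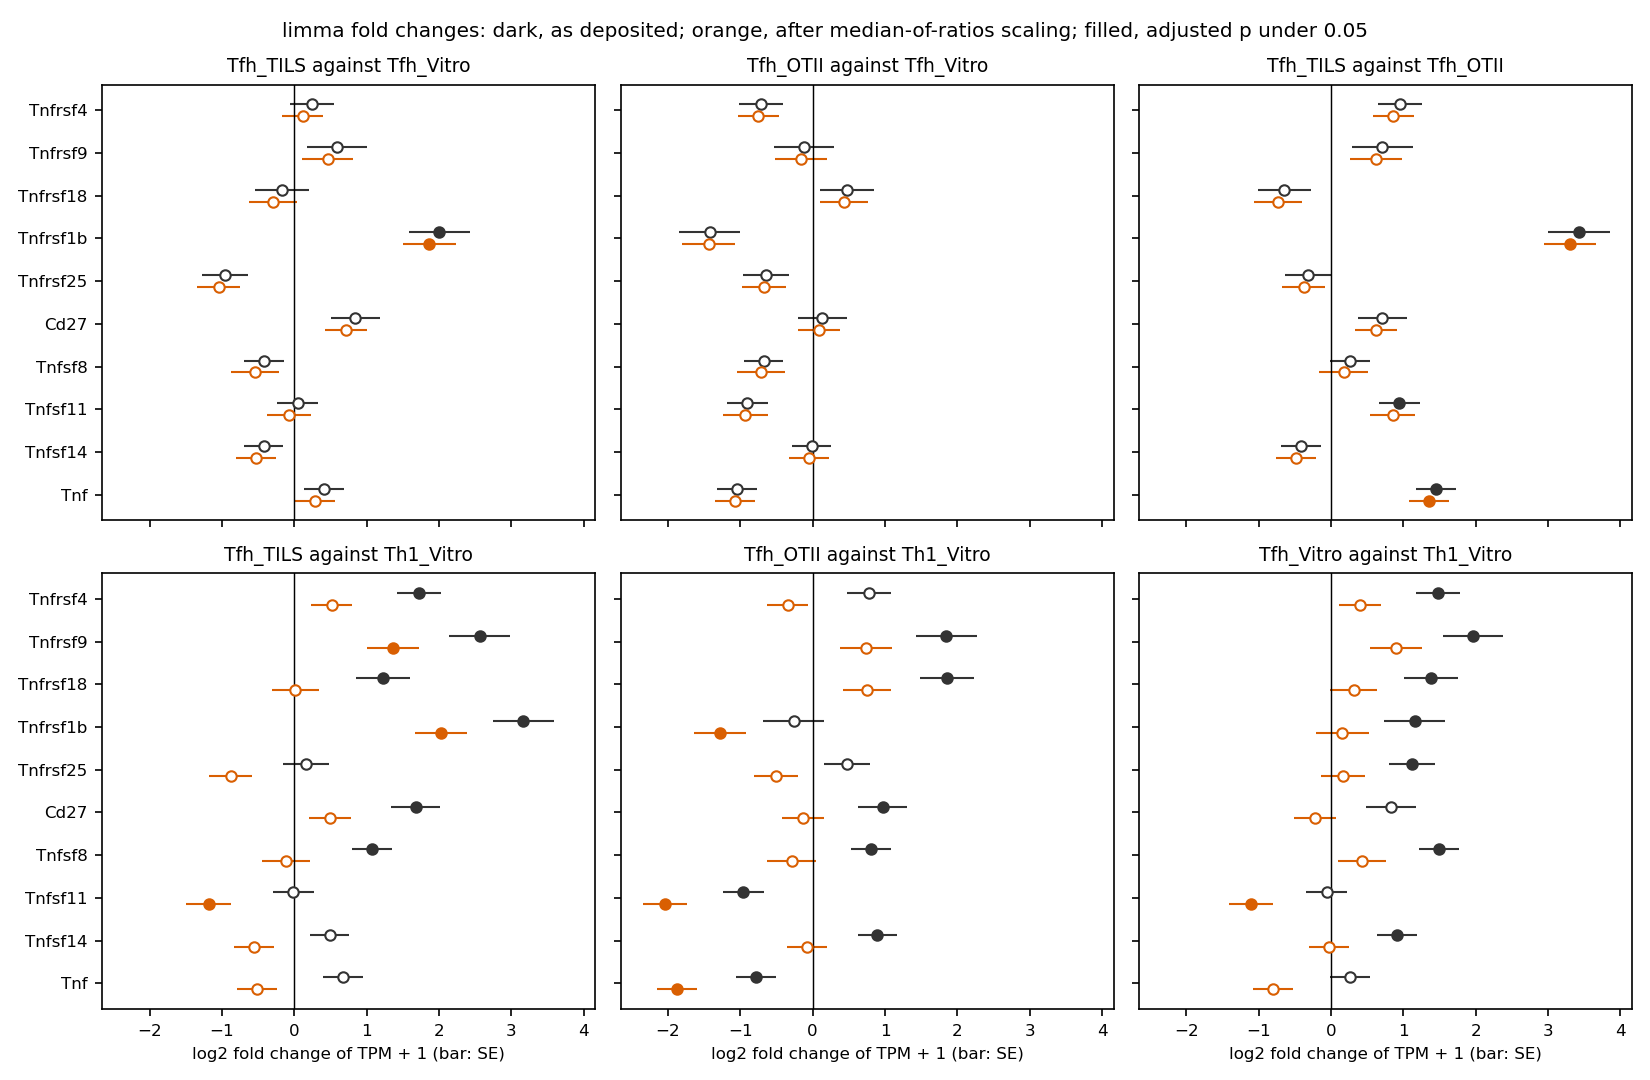
Difference of mean log2(TPM + 1) (x axis, with SE) for the 10 members (y axis) in the 6 comparisons, dark as deposited and orange after scaling, filled where the limma adjusted p is under 0.05. Scaling moves every member to the left against Th1_Vitro and leaves the comparisons among Tfh groups nearly in place.

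Within Tfh_TILS most receptors and most ligands stood on opposite sides in replicate 2. In replicate 2, the library with the most macrophage marker and Gzmb RNA, 5 receptors were 2.14 to 2.74 times the mean of replicates 1 and 3 (Tnfrsf4, Tnfrsf9, Tnfrsf18, Cd27 and Tnfrsf1b). Tnfrsf25 was at 0.583 times that mean, Tnfsf8 at 0.465, Tnfsf11 at 0.524 and Tnf at 0.765, and Tnfsf14 was at 1.43 times it. Among 10503 genes at 5 TPM or more in all Tfh_TILS libraries the median ratio was 1.13, and 24.1% were at 1.5 or more. The summed TPM of 11 T cell identity genes was 3286 in that library, against 1816 and 1974 in replicates 1 and 3. For the 8 regulatory T cell markers the sum was 1768, against 909 and 1063. Singly these 8 ran from 1.01 (Il2ra) to 4.71 (Il10) times the mean of replicates 1 and 3, with Foxp3 at 2.28. The part of other cells in these ratios was not tested.

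**Figure D3:**
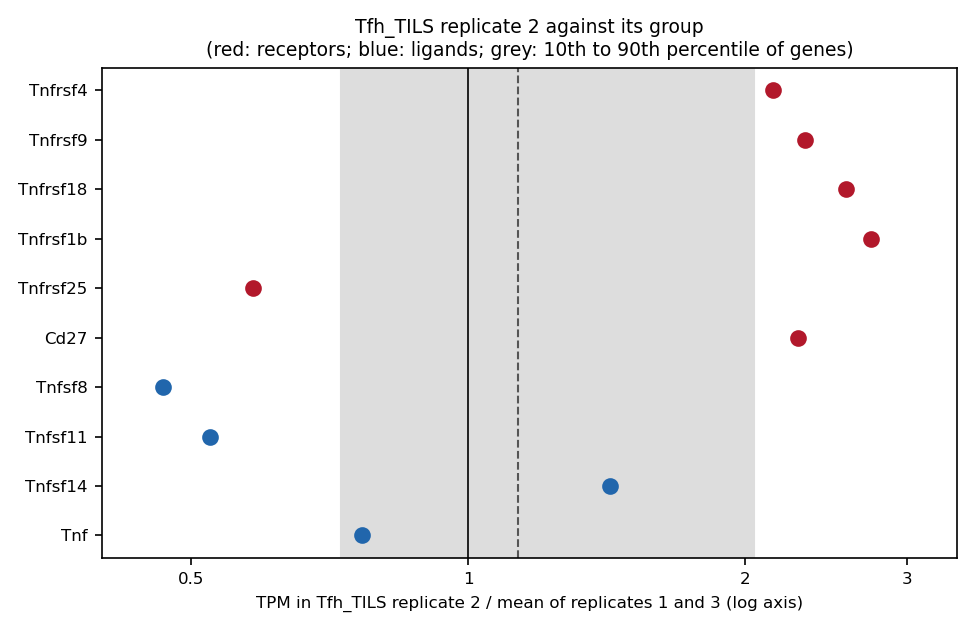
TPM of each member (y axis) in Tfh_TILS replicate 2 divided by the mean of replicates 1 and 3 (x axis, logarithmic), receptors in red and ligands in blue. The grey band spans the 10th to 90th percentile of 10503 genes (0.726 to 2.05) and the dashed line is their median (1.13), with 5 receptors right of the band and Tnfrsf25, Tnfsf8 and Tnfsf11 left of it.

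Ratios of members within a library do not depend on the scaling. They were chosen after the values were seen and are given as a description, without a test. The Tnfrsf18 to Tnfrsf4 ratio was 0.421, 0.530 and 0.458 in Tfh_TILS, 1.36, 1.39 and 1.51 in Tfh_OTII, 0.605, 0.705 and 0.566 in Tfh_Vitro and 0.662, 0.508 and 0.865 in Th1_Vitro. GITR transcripts thus outnumbered OX40 transcripts per length in the 3 Tfh_OTII libraries and in no other. The Tnfrsf1b to Tnfrsf4 ratio was 0.175 to 0.291 in Tfh_TILS, 0.0349 to 0.0427 in Tfh_OTII, 0.0535 to 0.0847 in Tfh_Vitro and 0.0540 to 0.101 in Th1_Vitro. Tfh_TILS was highest and Tfh_OTII lowest, and neither overlapped another group. The Tnfsf11 to Tnfsf8 ratio was 0.314 to 0.400 in Tfh_TILS, 0.184 to 0.262 in Tfh_OTII, 0.227 to 0.303 in Tfh_Vitro and 0.759 to 0.846 in Th1_Vitro, so RANKL stood higher relative to CD30 ligand in every Th1_Vitro library. The receptor sum over the ligand sum was 3.33, 15.2 and 4.83 in Tfh_TILS, 6.65 to 7.45 in Tfh_OTII, 4.17 to 4.90 in Tfh_Vitro and 2.33 to 3.53 in Th1_Vitro.

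**Figure D4:**
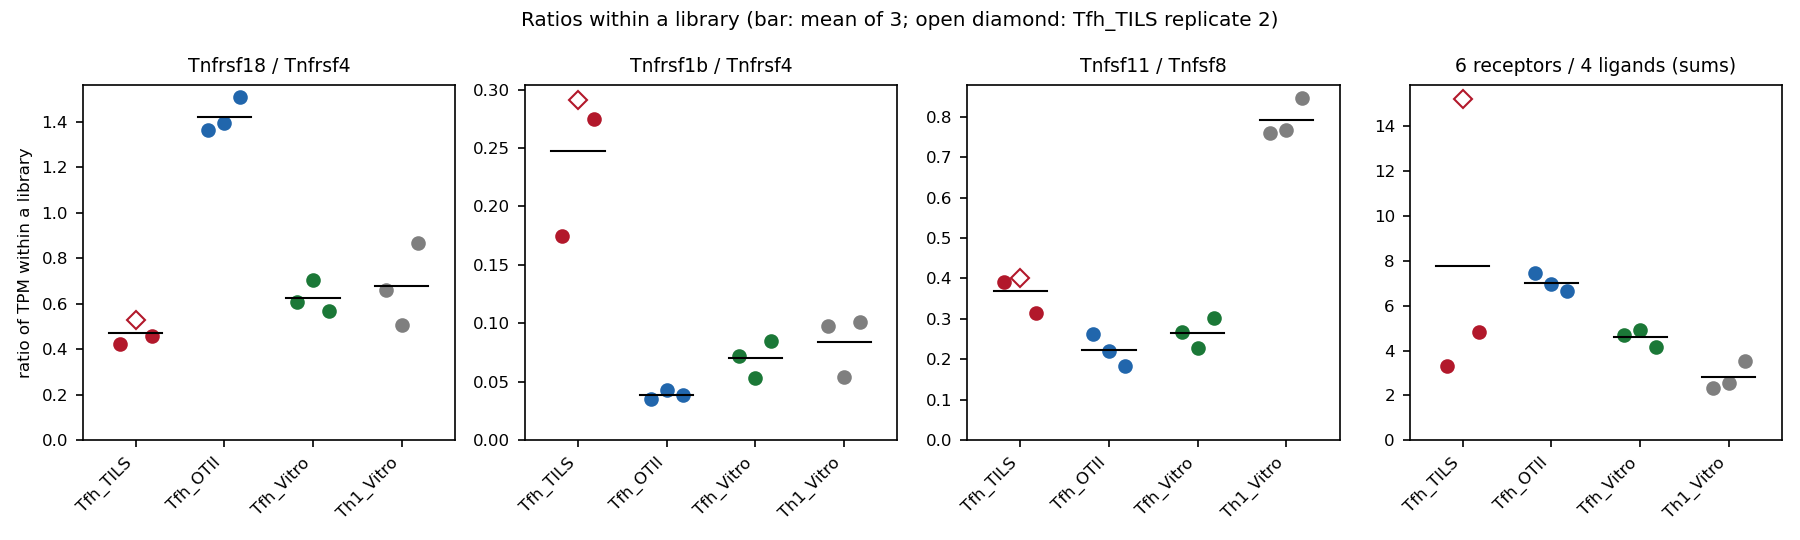
Ratios of TPM within each library (y axis, from 0) in the 4 groups (x axis), with 1 point per library and a bar at the mean of 3. Tnfrsf18 over Tnfrsf4 is above 1 only in Tfh_OTII (1.36 to 1.51), and Tnfsf11 over Tnfsf8 is highest in Th1_Vitro (0.759 to 0.846).

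The partners of the members were also measured. Tnfsf4, the ligand of OX40, was at 7.24, 3.87 and 5.50 TPM in Tfh_TILS, 20.1, 17.8 and 22.9 TPM in Tfh_OTII, 21.9, 18.1 and 16.8 TPM in Tfh_Vitro and 9.10, 6.70 and 8.21 TPM in Th1_Vitro. The Tfh_TILS libraries lay below both Tfh cultures, opposite in order to Tnfrsf4 against Tfh_OTII. That Tnfrsf4 difference, 0.95 ± 0.30, did not pass (limma adjusted p = 0.0514; after scaling 0.86, adjusted p = 0.0613). Tnfsf4 fell in Tfh_TILS, with a log2 difference of -1.63 ± 0.24 against Tfh_Vitro (limma adjusted p = 0.00544) and of -1.73 ± 0.24 against Tfh_OTII (adjusted p = 0.000578), and passed as deposited with each library left out in both comparisons. After scaling the first was -1.71 (adjusted p = 0.00963) and passed in 4 of 6 cases. Tnfsf9, the ligand of 4-1BB, ranged from 2.85 to 8.17 TPM in Tfh_TILS, 4.81 to 6.57 TPM in Tfh_OTII, 4.84 to 6.88 TPM in Tfh_Vitro and 1.44 to 2.49 TPM in Th1_Vitro, and did not pass both ways in any comparison. The ligands of CD27 and GITR were near the lower limit, with Cd70 at 0.394 to 2.44 TPM and Tnfsf18 at 0 to 0.576 TPM over all libraries, and Tnfsf18 was too low to be tested.

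Tnfrsf11a, which encodes RANK, the receptor of RANKL, was at 45.9, 35.4 and 28.4 TPM in Tfh_TILS, 6.31, 4.91 and 2.61 TPM in Tfh_OTII, 12.2, 17.4 and 29.5 TPM in Tfh_Vitro and 3.96, 3.46 and 1.43 TPM in Th1_Vitro. It rose in Tfh_TILS by 2.78 ± 0.38 log2 against Tfh_OTII (limma adjusted p = 0.000479) and by 3.29 ± 0.38 against Th1_Vitro (after scaling 2.26, adjusted p = 0.00288), both with each library left out. Tnfrsf11a fell in Tfh_OTII against Tfh_Vitro, with a difference of -1.86 ± 0.38 (adjusted p = 0.0219), a call that was kept as deposited in 2 of 6 cases with a library left out. Tnfsf15, which encodes TL1A, the ligand of DR3, was at 25.3, 17.5 and 13.5 TPM in Tfh_TILS, 4.84, 5.13 and 1.86 TPM in Tfh_OTII, 12.9, 17.3 and 22.5 TPM in Tfh_Vitro and 2.45, 1.94 and 0.614 TPM in Th1_Vitro. Tfh_TILS and Tfh_Vitro overlapped and lay above the other groups for Tnfsf15. It rose in Tfh_TILS against Tfh_OTII by 2.04 ± 0.38 (adjusted p = 0.00343) and fell in Tfh_OTII against Tfh_Vitro, with a difference of -1.96 ± 0.38 (adjusted p = 0.0173; kept as deposited in 3 of 6 cases). Tnfrsf8, the CD30 receptor, rose against Th1_Vitro by 2.37 ± 0.28 in Tfh_TILS (after scaling 1.43, adjusted p = 0.00549) and by 2.32 ± 0.28 in Tfh_Vitro (after scaling adjusted p = 0.00474), each with every library left out in turn. Its TPM were 13.5 to 15.5 in Tfh_TILS, 7.27 to 8.92 in Tfh_OTII, 10.5 to 16.3 in Tfh_Vitro and 1.13 to 3.45 in Th1_Vitro. Tnfrsf1a, the TNF receptor with a death domain, ranged from 4.49 to 40.1 TPM in Tfh_TILS, with the highest value in replicate 2, and from 7.27 to 10.4 TPM in Tfh_Vitro, and did not pass in any comparison. Tnfrsf14, the HVEM receptor of LIGHT, ranged from 31.5 to 37.7 TPM in Tfh_TILS, 24.8 to 27.3 TPM in Tfh_OTII, 24.3 to 29.9 TPM in Tfh_Vitro and 13.7 to 42.4 TPM in Th1_Vitro.

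**Figure D5:**
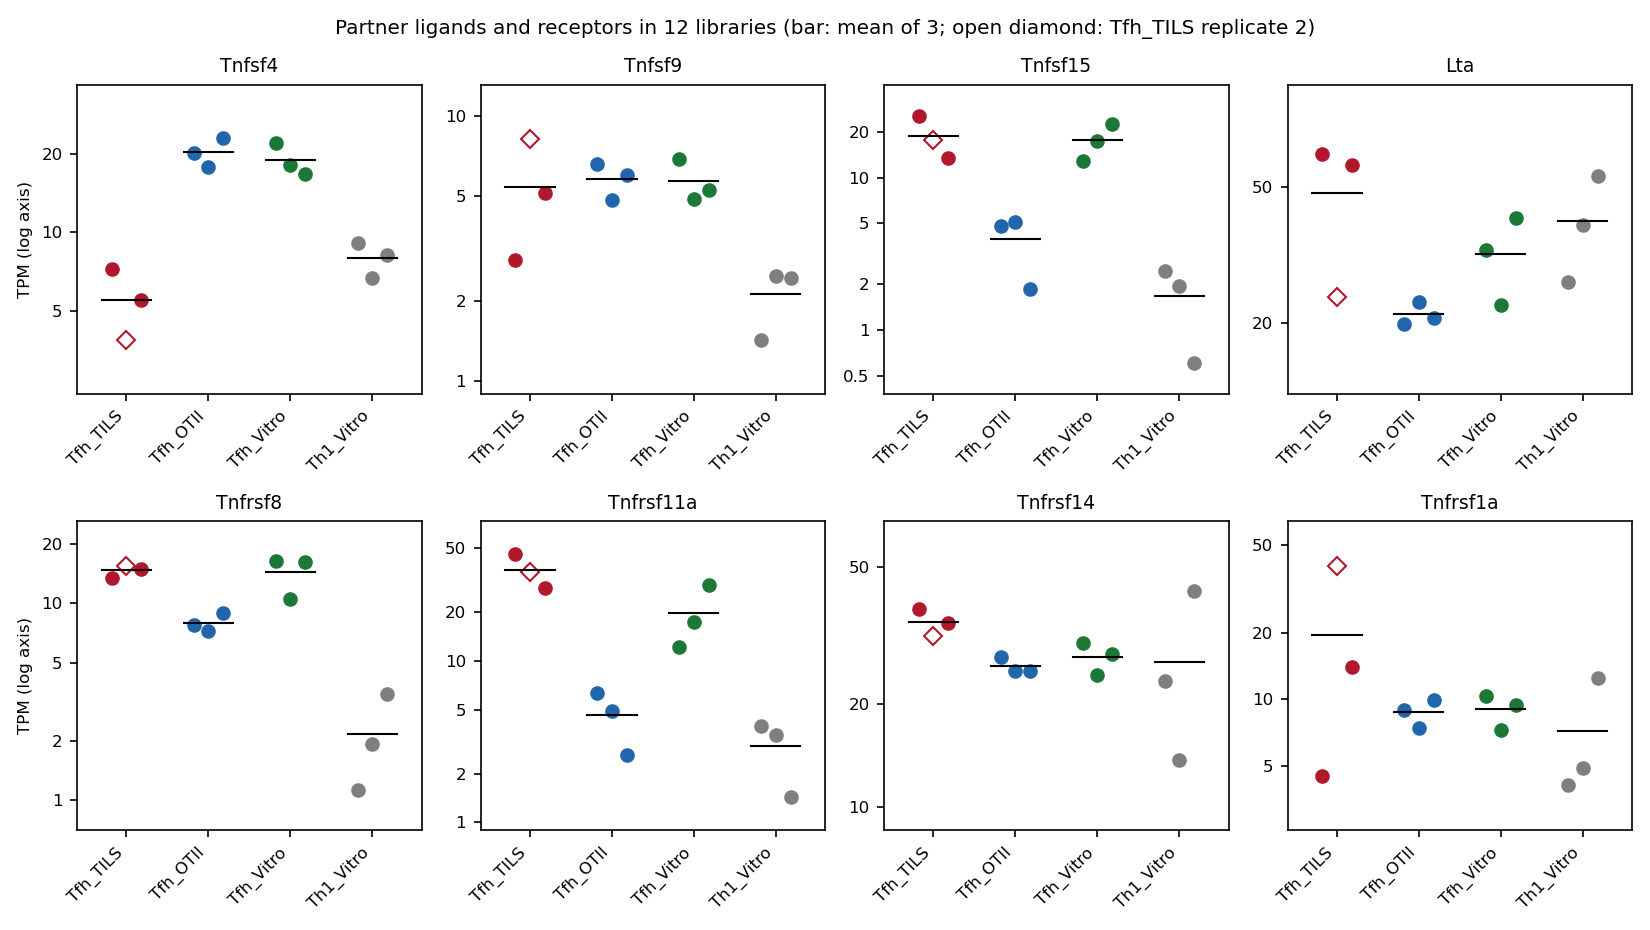
TPM of 8 partner ligands and receptors (y axis, logarithmic) in the 4 groups (x axis), with 1 point per library and a bar at the mean of 3. Tnfsf4 is lower in Tfh_TILS (3.87 to 7.24) than in both Tfh cultures, and Tnfsf15 and Tnfrsf11a are higher in Tfh_TILS and Tfh_Vitro than in Tfh_OTII and Th1_Vitro.

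The rest of the superfamily and its signalling genes were counted by calls both ways. In Tfh_TILS against Tfh_OTII, 6.76% of all genes were higher and 6.84% lower both ways. Of 14 other ligands, 13 were tested, and in that comparison 1 rose (Tnfsf15) and 2 fell (Tnfsf4 and Cd40lg, the CD40 ligand, -1.09 ± 0.28, adjusted p = 0.0197). Of 22 other receptors, 19 were tested, and 2 rose (Tnfrsf11a and Cd40, 1.64 ± 0.39, adjusted p = 0.0131) and 1 fell (Fas, the death receptor, -1.05 ± 0.18, adjusted p = 0.00233). Cd40, a receptor of antigen-presenting cells, was at 16.8, 28.4 and 16.8 TPM in Tfh_TILS, against 3.59 to 11.1 TPM in Tfh_OTII. Its call as deposited was kept in 3 of 6 cases with a library left out. The summed TPM of 10 B cell markers was 82.1 to 95.9 in Tfh_TILS and 19.3 to 45.3 in Tfh_OTII. Both ways 5 of them were higher and none lower, and of 9 dendritic cell markers 2 were higher and 1 lower. Against Tfh_Vitro no marker of either list was called. The part of such cells in the Cd40 difference was not tested. The Cd40lg call as deposited was kept in 3 of 6 cases and the Fas call in 6. Of 16 TRAF and death-domain adaptors 2 rose both ways, Traf5 (1.32 ± 0.35; kept in 3 of 6 cases) and Tank (1.05 ± 0.26; kept in 5). Of 20 NF-kB pathway genes 2 rose both ways, Nfkbiz (1.30 ± 0.34; kept in 2 of 6 cases) and Tnfaip3 (1.42 ± 0.40; kept in 1). Of 11 genes of TNF shedding and mRNA decay 2 rose both ways, Zfp36 (2.49 ± 0.57; kept in 6 of 6 cases) and Zfp36l1 (1.72 ± 0.31; kept in 6). Tnfaip3 and Zfp36 encode a ubiquitin-editing inhibitor of NF-kB and a protein that destabilises Tnf mRNA. Both were highest in Tfh_TILS replicate 2, at 250.4 and 184 TPM, against 59.2 to 112 TPM and 19.4 to 57.1 TPM in the other Tfh_TILS libraries. The median differences of the 5 lists ran from 0.23 to 0.72 log2 in that comparison, against 0.06 for all genes.

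Against Th1_Vitro these genes were counted in the same way. In Tfh_TILS, 2 of 13 other ligands, 4 of 19 other receptors, 3 of 16 adaptors, 2 of 20 NF-kB pathway genes and 3 of 11 shedding and mRNA decay genes were higher both ways and none lower, where 10.2% of all genes were higher and 0.545% lower. The ligands were Tnfsf15 and Tnfsf10. The receptors were Tnfrsf8, Tnfrsf11a, Tnfrsf13b and Ltbr, the lymphotoxin beta receptor, which was at 0.830, 5.02 and 4.21 TPM in Tfh_TILS and at 0.136 to 0.245 TPM in Th1_Vitro. The adaptors were Tank (1.11 after scaling, adjusted p = 0.00759), Traf3 (1.12, adjusted p = 0.0264) and Casp8, the initiator caspase of death receptors (1.18, adjusted p = 0.0348). The NF-kB genes were Nfkbiz and Cyld, a deubiquitinase that restrains NF-kB, and the others were Zfp36l1, Zfp36l2, which is related to Zfp36, and Timp3, an inhibitor of the TNF sheddase. With a library left out, the scaled calls of Traf3 and Casp8 were kept in 3 of 6 cases, that of Cyld in 2, that of Zfp36l1 in 2, that of Ltbr in 1 and that of Timp3 in 4. In Tfh_OTII the counts higher both ways were 1, 2, 1, 3 and 0 in the same order of lists, where 12.3% of all genes were higher, and none was lower, where 1.15% of all genes were. In Tfh_Vitro they were 1, 2, 0, 1 and 0, where 8.65% of all genes were higher, and none was lower. After scaling alone, 2, 4, 2, 8 and 0 genes were lower in Tfh_OTII, where 1811 of all 23308 genes were. By that rule 1, 3, 0, 4 and 0 were lower in Tfh_Vitro, where 5.07% of all genes were. For Tfh_TILS the counts lower after scaling were 1, 0, 1, 3 and 0, where 1630 of all 23308 genes were. Among the Tfh groups, Tfh_TILS against Tfh_Vitro had 1 ligand lower (Tnfsf4) and 1 receptor higher (Cd40), where 0.965% of all genes were higher and 0.849% lower. The Cd40 call in that comparison (1.66 ± 0.39, adjusted p = 0.0475) was kept in 1 of 6 cases. Tfh_OTII against Tfh_Vitro had 1 ligand (Tnfsf15) and 1 receptor (Tnfrsf11a) lower, where 0.661% of all genes were higher and 1.16% lower. No adaptor, NF-kB or shedding gene was called both ways in the last 2 comparisons, and 1 adaptor (Tank) was higher in Tfh_TILS than in Tfh_Vitro as deposited alone.

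By correlation of scaled log2 values over the 12 libraries and 10638 genes, the genes most like Tnfrsf1b were Skil (Pearson r = 0.978), H2-Q6 (0.976) and Hmox1 (0.966). Hmox1, a haem oxygenase abundant in macrophages, averaged 126 TPM in Tfh_TILS, 4.22 TPM in Tfh_OTII, 11.2 TPM in Tfh_Vitro and 4.35 TPM in Th1_Vitro. For Tnfrsf9 the first gene was Asb2 (0.976), for Tnfrsf18 Hpcal1 (0.962), for Cd27 Psap (0.970), for Tnfrsf4 Rgs1 (0.933) and for Tnfrsf25 Txnl4a (0.889). For the ligands it was Ubqln1 for Tnf (0.951), Tmem42 for Tnfsf11 (0.941), Fnta for Tnfsf14 (0.909) and Slc12a2 for Tnfsf8 (0.825). Traf6, an adaptor of the same pathway, was also among the 3 genes most like Tnf (0.943). Among the members themselves Tnfsf11 and Tnf were most alike (0.887), followed by Tnfrsf4 and Tnfrsf1b (0.796), while Tnfrsf4 and Tnfrsf18 had r = 0.063. The libraries of a group share their origin, so these values describe the 12 libraries alone.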

How the data were processed

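Per the labels' protocols, libraries were made from total RNA with a stranded kit after removal of ribosomal RNA and sequenced in pairs. The deposited values are TPM per gene symbol, made by the authors with kallisto on mm10, per the submitters' processing notes; version, annotation and strand setting are not given in the sources used here. limma 3.58.1 (R 4.3.3) was fitted to log2(TPM + 1) over all 12 libraries with 1 mean per group and an intensity trend, for 23308 genes that averaged 1 TPM or higher in any group. The log2 values are computed from the deposited TPM, and a difference understates changes of low genes. A gene is called where its p, adjusted by Benjamini and Hochberg's method across the genes tested, is under 0.05, and errors are moderated SE. Median-of-ratios size factors used 17585 genes above 0 in all libraries. The fit was tested on simulated data in which all groups shared each gene's spread, so unequal spreads between groups were not covered. Tables and figures used Python 3.11.15, numpy 2.4.6, pandas 2.3.3 and matplotlib 3.10.9.

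The members, gene lists and tests were chosen with earlier results of these data known. All 10 members are named; of other lists, at most 3 called higher and 3 lower per comparison, with members' partners; and the 3 genes most like each member (text gives the first, and others for Tnfrsf1b and Tnf), at a mean of 5 TPM or more in 1 group. The 12 predicted models, the motifs and the ratios were chosen after values were seen. Alternatives were 2 scalings, a pseudocount of 0.1, no filter or 5 TPM, a fit of 2 groups, each library left out and the replicate number as a block. Leaving out a library or adding the block after scaling was chosen after seeing the data.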

Additional observations from a re-analysis of the deposited data

How the results depend on the processing

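TPM carry no counts, so depth limits could not be computed. Members called, as deposited and then under each alternative that moved the count by over 1.5 times, were as follows. In Tfh_TILS against Tfh_Vitro it was 1, and 0 without a filter, with the replicate block and in a fit of the 2 groups, and 0 to 1 with a library left out (0 to 2 after scaling). In Tfh_OTII against Tfh_Vitro it was 0, and 6 in a fit of the 2 groups. In Tfh_Vitro against Th1_Vitro it was 7, and 1 after median-of-ratios and 0 after trimmed-mean scaling, and 4 to 8 with a library left out (0 to 2 after scaling, without Th1_Vitro replicate 1 giving 4 as deposited). In Tfh_TILS against Tfh_OTII it was 3, and 2 to 4 with a library left out, also after scaling. In Tfh_TILS against Th1_Vitro it was 6, and 3 after either scaling, and 5 to 7 with a library left out (1 to 4 after scaling). In Tfh_OTII against Th1_Vitro it was 7, and 3 after either scaling, and 3 to 8 with a library left out (2 to 3 after scaling). Replicate numbers did not pair libraries: same-numbered deviations correlated at -0.39 to 0.30, 3 of 18 pairs were over 0.1, and the own number was best in 7 of 36 cases. With the replicate block, members called were 0, 0, 6, 3, 6 and 6 in the comparisons in the above order, as deposited. The 858 values under alternatives were differences of single members and counts of calls. Of these, 697 kept direction and call, or a count within 1.5 times, and 40 changed sign. Signs changed with median-of-ratios and trimmed-mean scaling against Th1_Vitro, in that order: in Tfh_OTII for Cd27 (-0.13, -0.048), Tnfrsf25 (-0.50, -0.43), Tnfrsf4 (-0.35, -0.27), Tnfsf14 (-0.080, -0.00872) and Tnfsf8 (-0.29, -0.21); in Tfh_TILS for Tnf (-0.52, -0.49), Tnfrsf25 (-0.88, -0.86), Tnfsf14 (-0.56, -0.54) and Tnfsf8 (-0.12, -0.094); in Tfh_Vitro for Cd27 (-0.22, -0.15), Tnf (-0.80, -0.73) and, with the first alone, Tnfsf14 (-0.028). Tnfsf11 in Tfh_TILS against Tfh_Vitro became -0.077 and -0.12. These scalings lower the Tfh values against Th1_Vitro by construction. With a library left out, the range spanned 0 for Tnfrsf18 (-0.62 to 0.13), Tnfrsf4 (-0.12 to 0.47) and Tnfsf11 (-0.23 to 0.34) in Tfh_TILS against Tfh_Vitro, Tnfsf14 (-0.15 to 0.14) in Tfh_OTII against Tfh_Vitro, Tnfrsf1b (-0.51 to 0.040) in Tfh_OTII against Th1_Vitro, Tnfrsf25 (-0.018 to 0.50) and Tnfsf11 (-0.29 to 0.28) in Tfh_TILS against Th1_Vitro and Tnfsf11 (-0.20 to 0.15) in Tfh_Vitro against Th1_Vitro. Over all genes, calls in Tfh_TILS against Tfh_Vitro were 489, against 262 at a pseudocount of 0.1, 279 with the block, 131 in a fit of the 2 groups and 94 to 883 with a library left out. In Tfh_OTII against Tfh_Vitro they were 555, against 359, 385 and 2672 in those fits, with a low of 144. In Tfh_TILS against Tfh_OTII they were 3556, with a low of 2000. Against Th1_Vitro, 98.8% of 9688 calls in Tfh_Vitro were higher, against 63.0% of 3196 after median-of-ratios scaling (2688 after trimmed-mean scaling; a low of 6303 with a library left out); in Tfh_TILS 98.8% of 11641, against 59.3% of 4008 (3421); in Tfh_OTII 97.4% of 10226, against 61.2% of 4667 (4136). The causes were not tested.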

Other observations

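The TNF-related ligand Tnfsf10, which encodes TRAIL, and Tnfrsf13b, which encodes TACI, a receptor of B cell survival factors, were higher than in Th1_Vitro in 2 groups both ways. Tnfsf10 was at 6.85, 28.8 and 9.05 TPM in Tfh_TILS, 6.06 to 7.68 TPM in Tfh_OTII and 0.746, 0.815 and 1.196 TPM in Th1_Vitro. Tfh_Vitro, at 4.58 to 5.11 TPM, also lay above every Th1_Vitro library as deposited. Its difference was 2.80 ± 0.39 log2 for Tfh_TILS (after scaling 1.99, limma adjusted p = 0.00409) and 2.03 ± 0.39 for Tfh_OTII (after scaling 1.32, adjusted p = 0.0258; kept in 3 of 6 cases with a library left out). Tnfrsf13b was at 16.2 to 28.9 TPM in Tfh_TILS, 23.0 to 31.0 TPM in Tfh_OTII and 3.53 to 5.90 TPM in Th1_Vitro. In Tfh_Vitro it was at 15.0 to 22.0 TPM, again above every Th1_Vitro library as deposited. Tnfrsf13b differed from Th1_Vitro by 2.12 in Tfh_TILS and 2.26 in Tfh_OTII as deposited. After scaling it differed by 1.05 (limma adjusted p = 0.0155, kept in 4 of 6 cases) and 1.27 (adjusted p = 0.00439). Bcl3, an atypical member of the family of NF-kB inhibitors, was at 57.7 to 58.5 TPM in Tfh_OTII and 32.8 to 49.8 TPM in Tfh_Vitro. Its TPM were 16.7 to 55.5 in Tfh_TILS and 5.92 to 9.25 in Th1_Vitro. Bcl3 rose against Th1_Vitro by 2.90 ± 0.35 in Tfh_OTII (after scaling 1.86, limma adjusted p = 0.00152). In Tfh_Vitro it rose by 2.45 ± 0.35 (after scaling 1.46, adjusted p = 0.0102, lost in 1 of 6 cases, adjusted p = 0.0514).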
